A study of Mus musculus with 4 samples.

Results

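RNA of 10 mouse genes of the integrated stress response and the unfolded protein response was measured in FAP+ cells of pancreatic tumours. The genes were Atf4, Atf6, Ddit3, Trib3, Asns, Chac1, Herpud1, Xbp1, Creb3l1 and Sesn2. The members were chosen by symbol, and all 10 were found among the 22609 genes of the count table, which lists them in lower case (atf4, ddit3, creb3l1). The cells came from a spontaneous pancreatic ductal adenocarcinoma model on the C57BL/6 background and were FACS sorted for FAP, a surface protease of tumour stromal cells. The groups were FAP+ CD34+ cells and FAP+ CD34- cells, with 2 libraries each, and CD34, a surface sialomucin, was the only difference between them that the labels gave. The sources used here do not give the alleles of the model, the age of the mice or the number of animals behind a library, so p-values measure the spread between these libraries. Total RNA was amplified before sequencing, and total counts lay between 10322354 and 14633561 per library.

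Cells shut down general protein synthesis and switch on rescue genes when unfolded proteins gather in the endoplasmic reticulum (ER) or when amino acids run short. The sensors PERK (Eif2ak3) and GCN2 (Eif2ak4) phosphorylate eIF2alpha, which favours translation of the transcription factor ATF4, so the level of Atf4 mRNA is not a measure of ATF4 protein. The ER sensors IRE1 (Ern1) and ATF6 act beside PERK. IRE1 splices Xbp1 mRNA into the form that encodes the active factor, which counts per gene do not separate, and ATF6 is cut from the membrane in the Golgi. Fibroblasts of tumours secrete large amounts of collagen, a cargo that is folded in the ER.

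The transcripts behind the sort were measured first. Levels are given in CPM, the counts of a gene scaled to the column total. Cd34 stood at 143 and 293 CPM in CD34+ cells, against 18.3 and 23.9 CPM in CD34- cells, replicate 1 before replicate 2 here and throughout. Fap had 79.0 and 39.8 CPM in CD34+ cells, against 142 and 136 CPM in CD34- cells. The 11 fibroblast markers summed to 43983 and 45219 CPM in CD34+ cells and to 46053 and 42728 CPM in CD34- cells, with Col1a2, a collagen I chain, the most abundant (15840 and 15933 CPM in CD34+ cells against 18149 and 16244 CPM in CD34- cells). Across all 13875 tested genes the quasi-likelihood test of edgeR called 0% higher and 0% lower in CD34+ cells at an adjusted p of 0.05, and 9.81% higher and 6.65% lower at an unadjusted p of 0.05. Both CD34+ libraries lay above both CD34- libraries for 23.4% of the tested genes and below both for 26.6%. Log2 changes (log2 fold changes) are CD34+ over CD34-, from this test after TMM scaling.

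All 10 members passed the filter on low counts, and 0 were called in either direction by edgeR's quasi-likelihood test. At an unadjusted p of 0.05, 1 member was higher and 0 were lower. Only DESeq2 and edgeR's exact test, of the tests and settings tried, called a member, and both called Creb3l1, where DESeq2 called 2.85% of all genes higher and 1.30% lower and the exact test 3.29% and 1.46%. When the replicate number was a block, 0 members were called, and 0.281% of all genes were called higher and 0.166% lower. The groups did not overlap for 7 members, 2 of them higher (Creb3l1 and Ddit3) and 5 lower (Asns, Trib3, Chac1, Atf6 and Xbp1). Of all tested genes 23.4% were higher and 26.6% lower in this sense. Chac1 passed the filter on low counts only through its CD34- libraries, so its place among the lower members carries no weight of its own. The median log2 change of the members was -0.31, beside -0.02 over all tested genes. With bulk libraries, fewer cells of a type and less RNA per cell cannot be told apart.

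**Figure D1:**
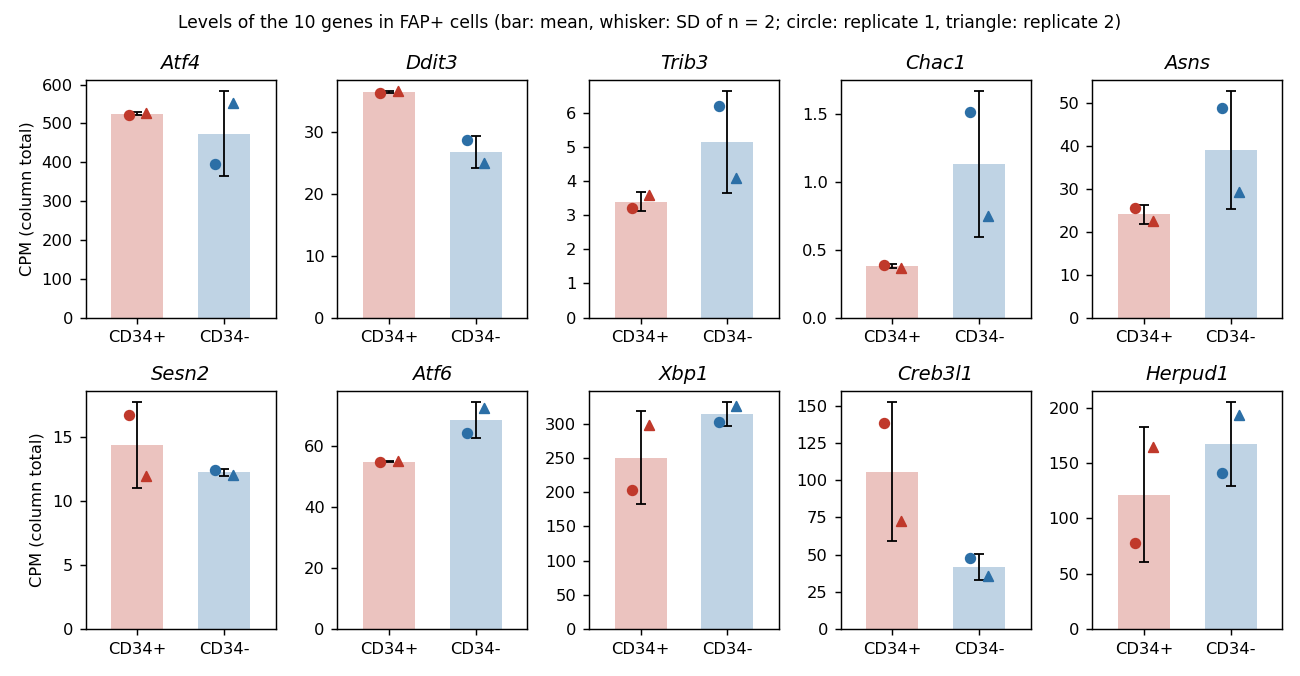
Level of each of the 10 genes in CPM by column total, with FAP+ CD34+ cells left and FAP+ CD34- cells right. Bars are means, whiskers SD (n = 2 libraries per group) and points the libraries. Creb3l1 and Ddit3 lay higher in both CD34+ libraries, and Asns, Trib3, Chac1, Atf6 and Xbp1 lower in both. Chac1 passed the filter on low counts only through its CD34- libraries.

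Promoters are shown for the 4 members that held a C/EBP-ATF response element (CARE), the composite site through which ATF4 with C/EBP partners acts on amino acid response genes. The sequences are 300 bases from RefSeq (GRCm38.p6), 250 before and 50 after the gene's start, and 8 of the 10 members matched. They lay at chr6:7693160-7693459 (minus strand) for Asns, chr2:119350992-119351291 (plus strand) for Chac1, chr2:152344011-152344310 (minus strand) for Trib3 and chr8:94386179-94386478 (plus strand) for Herpud1. Each is written 5′ to 3′ on the strand of its gene. Capitals mark a CARE (TGATGNAA, on either strand) and, in Herpud1, also an ER stress response element II (ATTGG, 1 base of any kind, CCACG).
Asns: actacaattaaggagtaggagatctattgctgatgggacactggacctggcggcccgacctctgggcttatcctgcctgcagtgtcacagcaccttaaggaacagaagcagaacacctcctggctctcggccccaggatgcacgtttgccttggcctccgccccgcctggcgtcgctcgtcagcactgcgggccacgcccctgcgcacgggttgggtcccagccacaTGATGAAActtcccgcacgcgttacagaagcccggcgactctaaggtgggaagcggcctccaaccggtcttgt
Chac1: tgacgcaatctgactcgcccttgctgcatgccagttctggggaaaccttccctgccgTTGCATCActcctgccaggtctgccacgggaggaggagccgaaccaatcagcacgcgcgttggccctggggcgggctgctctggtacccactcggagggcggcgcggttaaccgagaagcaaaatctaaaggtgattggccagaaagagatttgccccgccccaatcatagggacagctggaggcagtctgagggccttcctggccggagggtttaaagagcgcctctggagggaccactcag
Trib3: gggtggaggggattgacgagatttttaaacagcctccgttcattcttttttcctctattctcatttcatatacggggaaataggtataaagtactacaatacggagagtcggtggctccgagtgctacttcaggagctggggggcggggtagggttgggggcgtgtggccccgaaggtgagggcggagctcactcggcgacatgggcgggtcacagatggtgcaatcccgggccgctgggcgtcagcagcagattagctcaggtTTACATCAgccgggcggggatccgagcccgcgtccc
Herpud1: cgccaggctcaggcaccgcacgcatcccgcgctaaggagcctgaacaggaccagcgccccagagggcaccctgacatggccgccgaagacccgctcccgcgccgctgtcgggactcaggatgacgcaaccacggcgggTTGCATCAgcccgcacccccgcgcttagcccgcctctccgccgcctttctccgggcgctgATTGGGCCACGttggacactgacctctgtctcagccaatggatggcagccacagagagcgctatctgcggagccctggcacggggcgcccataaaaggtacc
The CARE began 23 bases before the start of Asns and, on the opposite strand, 193 bases before that of Chac1, 112 bases before that of Herpud1 and at base 15 of the Trib3 transcript. Element II, on the strand of the gene, began 52 bases before the start of Herpud1. Of all 32851 promoters of this length, 3.97% held a CARE and 0.0365% the element II. The ER stress response element (CCAAT, 9 bases of any kind, CCACG, in 0.119% of all promoters) and the unfolded protein response element (TGACGTGG, in 0.676%) were searched on both strands too, and neither was found in the 8 member promoters. Both share the letters CCACG or their complement with element II, no promoter of a member held overlapping matches, and no match says only that the letters are not in this window. Atf4, Ddit3, Xbp1 and Sesn2 held none of the 4 motifs; Atf6 and Creb3l1 had no entry.

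Atf4 encodes the factor at the centre of the response. It had 522 and 528 CPM in CD34+ cells, against 397 and 551 CPM in CD34- cells. The groups overlapped, with CD34- replicate 1 lowest and CD34- replicate 2 highest. Its log2 change was 0.15 (SE 0.32, adjusted p = 0.833, edgeR), and it turned to -0.16 without CD34- replicate 1. Among 6756 other genes of at least 20 CPM, Fbn1, which encodes the microfibril protein fibrillin-1, had the pattern over the 4 libraries most like that of Atf4 (1648 and 1648 CPM in CD34+, against 1302 and 1759 CPM in CD34-). The root mean square difference of their centred log2 CPM was 0.026, and the next were Tap1, a peptide transporter gene (0.041), and Npr2, a natriuretic peptide receptor gene (0.042). Over 4 libraries such a likeness is a description only.

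Ddit3 encodes CHOP, the factor that ATF4 induces and that promotes cell death when ER stress lasts. It had 36.4 and 36.6 CPM in CD34+ cells, against 28.7 and 25.01 CPM in CD34- cells. Both CD34+ libraries were higher than both CD34- libraries, with a log2 change of 0.47 (SE 0.23, adjusted p = 0.367, edgeR). In the RefSeq table Ddit3 overlaps Mars1 and Mbd6, and reads of overlapping genes cannot be told apart without the strand setting. The authors' estimated fragments were 2.21 to 2.69 per deposited count for Ddit3 and 0.544 to 1.72 for the other 9 members. On those fragments the log2 change of Ddit3 was 0.50 (adjusted p = 0.404, edgeR). Mars, the methionyl-tRNA synthetase gene that RefSeq calls Mars1, lay the other way, at 45.0 and 41.5 CPM in CD34+ cells, against 72.4 and 57.2 CPM in CD34- cells.

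Creb3l1 encodes OASIS, a membrane-bound relative of ATF6 that is cleaved in the same way and is known from mouse bone for driving collagen I secretion by osteoblasts. It had 139 and 72.7 CPM in CD34+ cells, against 48.0 and 35.3 CPM in CD34- cells. Every CD34+ value was above every CD34- value, although the CD34+ libraries differed from each other more than the CD34- libraries did. The means were 106 ± 46.6 CPM for CD34+ cells and 41.6 ± 8.93 CPM for CD34- cells (SD, n = 2 each), a log2 change of 1.38 (SE 0.37). Its unadjusted p of 0.0095 gave an adjusted p of 0.215 (edgeR quasi-likelihood test), DESeq2 gave 0.0268 and edgeR's exact test 0.0368, and over all alternatives the adjusted p lay between 0.0268 and 0.573. Without CD34+ replicate 1 the log2 change was 0.80. Wt1, the most abundant mesothelial marker, also stood highest in that library (206 and 120 CPM in CD34+ cells, against 57.7 and 79.3 CPM in CD34- cells). CD34+ replicate 1 was highest for 4 of the 6 mesothelial genes (28.9% of all tested genes), and CD34- replicate 1 and CD34- replicate 2 for 1 each. Upk3b and Lrrn4, both among those 4, passed the filter on low counts only through their CD34+ libraries. Msln was highest in CD34- replicate 1 (49.8 and 13.8 CPM in CD34+ cells, against 75.0 and 11.6 CPM in CD34- cells). Upk3b, Lrrn4 and Msln were named after their values were seen. Of the 6 genes 4 had a positive and 2 a negative log2 change. The part of mesothelial cells in the values of Creb3l1 was not tested. Creb3l2, a close relative of Creb3l1 that serves collagen secretion in mouse cartilage, lay the other way at 38.9 and 23.3 CPM in CD34+ cells, against 45.0 and 41.6 CPM in CD34- cells (log2 change -0.45, SE 0.32, adjusted p = 0.498, edgeR).

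The remaining ER factor genes lay lower in CD34+ cells. Atf6, the sensor that becomes a factor, had 54.6 and 55.1 CPM in CD34+ cells, against 64.2 and 72.5 CPM in CD34- cells (log2 change -0.30, SE 0.24, adjusted p = 0.544, edgeR). Xbp1 had 203 and 299 CPM in CD34+ cells, against 302 and 327 CPM in CD34- cells (log2 change -0.32, SE 0.30, adjusted p = 0.615, edgeR). For Atf6 the groups stood apart, while for Xbp1 CD34+ replicate 2 came next to CD34- replicate 1 and only CD34+ replicate 1 was well below the rest. In the RefSeq table predicted genes such as Gm9929 overlap Atf6. Without CD34+ replicate 1 the log2 change of Xbp1 was -0.089, and that of Atf6 was -0.14 without CD34- replicate 2.

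Plasma and acinar cells are known to be rich in Xbp1, and their markers were measured beside it. In the list of 13 lymphoid and plasma genes the sums were 275 and 258 CPM in CD34+ cells and 1143 and 674 CPM in CD34- cells, most of it Sdc1, which plasma cells share with stromal and epithelial cells (233 and 228 CPM in CD34+ cells against 1128 and 644 CPM in CD34- cells). Prdm1, a plasma cell factor named after its values were seen, had 13.5 and 11.1 CPM in CD34+ cells against 12.3 and 24.9 CPM in CD34- cells, highest in CD34- replicate 2 as Xbp1 was. The plasma cell genes Igj, Mzb1 and Tnfrsf17 had at most 11.1, 2.12 and 0.194 CPM, each in a CD34+ library. The 12 acinar markers summed to 26.5 and 35.6 CPM in CD34+ cells and to 28.8 and 14.4 CPM in CD34- cells, the most abundant being Ctrb1, a chymotrypsinogen gene. Amy2a5 had a deposited count of 0 in all 4 libraries, but 5 and 1 estimated fragments in CD34+ cells and 17 and 0 in CD34- cells in the authors' fragment table. The part of these cells in the values of Xbp1 was not tested.

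Herpud1 encodes a membrane protein of ER-associated degradation. It had 78.1 and 164 CPM in CD34+ cells, against 141 and 194 CPM in CD34- cells. The groups overlapped, with CD34+ replicate 1 lowest. The log2 change of -0.46 (SE 0.41, adjusted p = 0.590, edgeR) was -0.045 without CD34+ replicate 1 and -0.13 without CD34- replicate 2.

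Asns, Trib3 and Chac1, targets of ATF4 that hold a CARE and act in amino acid metabolism and feedback, lay lower in both CD34+ libraries. They were put together with their values known. Herpud1, which also holds a CARE, overlapped between the groups, and Ddit3, which ATF4 induces, lay higher. Asns, asparagine synthetase, had 25.6 and 22.4 CPM in CD34+ cells, against 48.6 and 29.2 CPM in CD34- cells. Trib3, a pseudokinase that curbs ATF4 and AKT, had 3.20 and 3.59 CPM in CD34+ cells, against 6.20 and 4.10 CPM in CD34- cells. Chac1, which breaks down glutathione, had 4 and 5 counts in CD34+ cells (0.388 and 0.366 CPM) and 20 and 11 counts in CD34- cells (1.51 and 0.752 CPM). In all 3 genes CD34- replicate 1 was highest and CD34- replicate 2 stood between it and the CD34+ libraries.

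The log2 changes were -0.66 for Asns (SE 0.30, adjusted p = 0.328, edgeR), -0.57 for Trib3 (SE 0.44, adjusted p = 0.535, edgeR) and -1.53 for Chac1 (SE 0.65, adjusted p = 0.314, edgeR). Without CD34- replicate 1 they were -0.37, -0.36 and -1.07. Chac1 passed the filter on low counts only through its CD34- libraries. Its exact Poisson 95% intervals, which cover counting error only, were 0.106 to 0.992 and 0.119 to 0.855 CPM in CD34+ cells. In CD34- cells they were 0.924 to 2.34 and 0.375 to 1.34 CPM. For Trib3 the intervals were 2.2 to 4.49 and 2.66 to 4.75 CPM in CD34+ and 4.93 to 7.7 and 3.13 to 5.28 CPM in CD34- cells. The Trib3 interval of CD34- replicate 2 overlapped those of both CD34+ libraries. Sesn2, the stress-induced sestrin that restrains mTORC1 when leucine is short, had 16.8 and 12.0 CPM in CD34+ cells, against 12.5 and 12.1 CPM in CD34- cells. Its groups overlapped, and CD34+ replicate 1 alone stood above the others (log2 change 0.25, SE 0.32, adjusted p = 0.718, edgeR, and -0.043 without that library).

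**Figure D2:**
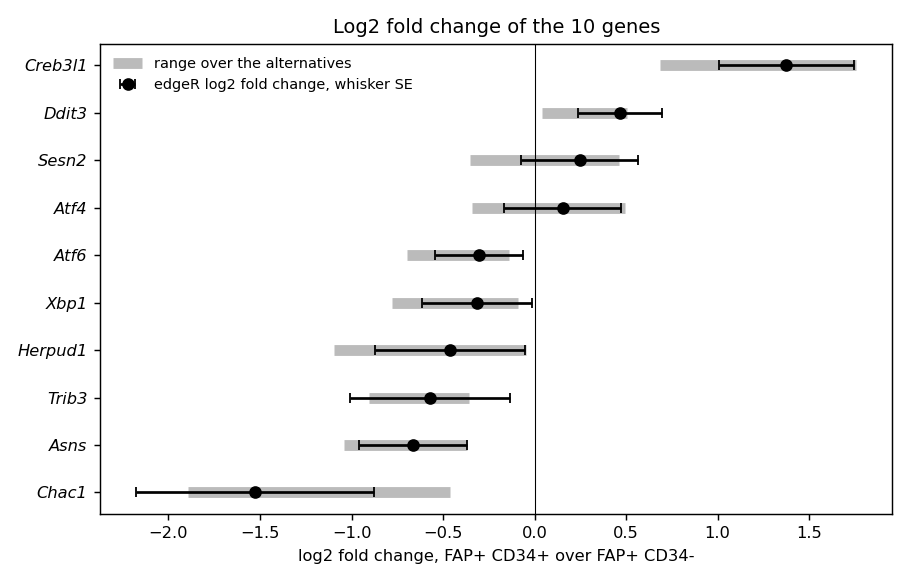
Log2 change of the 10 genes, FAP+ CD34+ over FAP+ CD34-, as points with SE whiskers from edgeR; the grey bands span the lowest and highest value over the alternative settings. Creb3l1 (1.38) and Chac1 (-1.53) lay farthest from 0, and the bands of Atf4 and Sesn2 cross 0. Chac1 had few counts and passed the filter only through its CD34- libraries.

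Levels between genes were compared per length, by the deposited RPKM (reads scaled to the length of the gene) within each library. Atf4 was first of the 10 in every library, at 169 and 222 RPKM in CD34+ and 188 and 276 RPKM in CD34- cells. Xbp1 followed in every library (63.1 and 121 RPKM in CD34+, 137 and 156 RPKM in CD34-), and Trib3 and Chac1 were at ranks 9 and 10 in every library, Chac1 at 0.138 to 0.788 RPKM. Creb3l1 was at rank 3 in CD34+ replicate 1 (34.2 RPKM), where Herpud1 was at rank 5 (23.4 RPKM). In the other libraries Herpud1 was at rank 3 and Creb3l1 at rank 5 or 6. Ddit3 was at rank 4 in all 4 libraries (23.4 and 30.6 RPKM in CD34+, 26.9 and 24.8 RPKM in CD34-), so its groups overlapped on that scale. The RPKM and FPKM scales move the median log2 change of the tested genes to -0.31 each (pseudocount 1), and relative to it Ddit3 stood at 0.36 and 0.35, Asns at -0.66 and -0.64, Creb3l1 at 1.16 and 0.99, and Atf4 at 0.08 and -0.03.

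The amino acid response genes beyond the members were mostly lower in CD34+ cells. Of the 24, 20 had a negative log2 change (51.3% of all tested genes did), with a median of -0.38. The groups did not overlap for 11 lower and 1 higher, 0 were called and 1 was lower at an unadjusted p of 0.05 (edgeR; 0 called by DESeq2). That gene was Mthfd2, a mitochondrial folate enzyme, with 21.7 and 14.4 CPM in CD34+ cells, against 44.0 and 24.5 CPM in CD34- cells (log2 change -0.88, SE 0.36, adjusted p = 0.302, edgeR). Of the 11 aminoacyl-tRNA synthetase genes 10 were negative and 9 did not overlap, all 9 lower, as 26.6% of all tested genes were. The other subsets were less one-sided. Of 5 serine and one-carbon enzyme genes 4 were negative, with 1 lower and 1 higher without overlap. Of 5 transporter genes 4 were negative, with 1 lower and 0 higher without overlap. Sars had 95.5 and 95.8 CPM in CD34+ cells against 171 and 112 CPM in CD34- cells, and Iars had 30.5 and 28.1 CPM in CD34+ cells against 47.0 and 37.0 CPM in CD34- cells.

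CD34- replicate 1 was the highest library for 18 of these 24 genes, as it was for 33.4% of all tested genes, and without it the median log2 change of the list was -0.23. A CARE was found in 7 of the 19 promoters of this list that matched (Aars, Gars, Iars, Pck2, Slc7a11, Tars and Yars), and all 7 genes had a negative log2 change, from -0.92 to -0.38. Of the 12 without a CARE, 9 were negative (median -0.25). Across all tested genes with a promoter, 52.06% of the 315 with a CARE and 51.86% of the 10636 without were negative, with medians of -0.02 and -0.03. Among the 20 other partners and targets of ATF4 and CHOP, 10 were positive and 10 negative (median -0.17). Of the 4 with a CARE in this list 2 were negative and 2 positive (median -0.44). Of the 14 without a CARE 8 were negative and 6 positive (median -0.46). Among all 20 the groups did not overlap for 4 higher and 8 lower, beside 23.4% and 26.6% of all tested genes. By edgeR 0 of the 20 were called, with 3 higher and 5 lower at an unadjusted p of 0.05, and DESeq2 called 1 lower.

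Within that last list Ero1l, the ER oxidase that CHOP and hypoxia induce, had 69.1 and 65.6 CPM in CD34+ cells against 199 and 160 CPM in CD34- cells (log2 change -1.39, SE 0.24, adjusted p = 0.171, edgeR; 0.00163, DESeq2). Both CD34+ libraries were far below both CD34- libraries. Trib2, a relative of Trib3, had 8.53 and 8.57 CPM in CD34+ cells against 26.3 and 14.4 CPM in CD34- cells, and Vldlr, a lipoprotein receptor, 8.43 and 16.6 CPM in CD34+ cells against 43.6 and 22.0 CPM in CD34- cells. Tnfrsf10b, the death receptor that CHOP induces, lay the other way, at 50.2 and 25.7 CPM in CD34+ cells, against 18.1 and 14.97 CPM in CD34- cells (log2 change 1.23, SE 0.38, adjusted p = 0.230, edgeR). Trib2, Vldlr and Tnfrsf10b did not pass by edgeR or DESeq2.

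Hypoxia genes, which are among the neighbours of this response, mostly lay lower in CD34+ cells too. Of the 10, 7 were negative and 3 positive (median -1.20). All 10 were without overlap of the groups, 7 lower (26.6% of all tested genes) and 3 higher (23.4%). By edgeR 0 were called, and DESeq2 called 6, 5 lower and 1 higher. Slc2a1, the glucose transporter, had 132 and 109 CPM in CD34+ cells against 380 and 328 CPM in CD34- cells. Bnip3, a mitophagy receptor, had 17.9 and 40.9 CPM in CD34+ cells against 146 and 118 CPM in CD34- cells, Pdk1, a kinase of pyruvate dehydrogenase, 13.5 and 15.8 CPM in CD34+ cells against 53.3 and 36.0 CPM in CD34- cells, and the glycolytic gene Pgk1 175 and 220 CPM in CD34+ cells against 831 and 485 CPM in CD34- cells. The 3 higher genes were Ndrg1, Adm and Car9, named after their values were seen. Ndrg1, a stress-induced gene, was the one that DESeq2 called higher, with 1339 and 726 CPM in CD34+ cells against 308 and 491 CPM in CD34- cells (log2 change 1.38, SE 0.46, adjusted p = 0.250, edgeR; 0.0412, DESeq2). The part of the hypoxia genes in the values of Ero1l and the amino acid genes was not tested.

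Most ER folding genes also lay lower in CD34+ cells, above all in CD34+ replicate 1. Of 16 ER chaperone and folding enzyme genes 12 were negative (median -0.33). Without overlap 7 lay lower (26.6% of all tested genes) and 1 higher (23.4%). By edgeR 0 of the 16 were called and none passed an unadjusted p of 0.05, and DESeq2 called 0. Pdia3, a disulphide isomerase of glycoproteins, had 345 and 645 CPM in CD34+ cells against 707 and 1033 CPM in CD34- cells, and P4hb, which also serves collagen prolyl hydroxylase, 937 and 1188 CPM in CD34+ cells against 1759 and 1491 CPM in CD34- cells. Dnajc10 had 89.0 and 153 CPM in CD34+ cells against 163 and 221 CPM in CD34- cells and Pdia4 111 and 246 CPM in CD34+ cells against 254 and 322 CPM in CD34- cells. Hspa5, which encodes BiP, the main ER chaperone and a readout of ATF6, was named after its values were seen (1181 and 1271 CPM in CD34+ cells against 1316 and 1907 CPM in CD34- cells, log2 change -0.39, SE 0.37).

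CD34+ replicate 1 was the lowest library for 13 of these 16 genes, against 35.6% of all tested genes, and the 16 summed to 5528 and 7480 CPM in CD34+ cells and to 7435 and 9128 CPM in CD34- cells. The sum of CD34+ replicate 2 thus stood level with that of CD34- replicate 1. The median log2 change of the list was -0.23 without CD34+ replicate 1 and -0.03 without CD34- replicate 2. Herpud1 had the same order of libraries.

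Genes of ER-associated degradation were negative for 13 of 16 (median -0.28). Without overlap 8 lay lower (26.6% of all tested genes) and 1 higher (23.4%). By edgeR 0 of the 16 were called, with 2 lower at an unadjusted p of 0.05, and DESeq2 called 0. Edem3, a mannosidase-like protein gene, had 27.3 and 30.8 CPM in CD34+ cells against 41.4 and 64.4 CPM in CD34- cells and Derl1, which encodes a channel protein of the ER membrane, 139 and 218 CPM in CD34+ cells against 276 and 316 CPM in CD34- cells, while Os9, a lectin, was higher at 182 and 142 CPM in CD34+ cells against 125 and 113 CPM in CD34- cells, a direction that turned on log2 FPKM. Secretory route genes were negative for 14 of 16 (median -0.60). Without overlap 14 lay lower (26.6% of all tested genes) and 1 higher (23.4%). By edgeR 0 of the 16 were called, with 5 lower at an unadjusted p of 0.05, and DESeq2 called 0. Ssr3, of the translocon, had 186 and 337 CPM in CD34+ cells against 527 and 587 CPM in CD34- cells, and Spcs3, of the signal peptidase, 71.9 and 95.3 CPM in CD34+ cells against 149 and 157 CPM in CD34- cells. The COPII coat genes Sec23a, with 52.6 and 89.3 CPM in CD34+ cells against 129 and 142 CPM in CD34- cells, and Sec24d, with 86.2 and 138 CPM in CD34+ cells against 196 and 200 CPM in CD34- cells, serve collagen export.

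**Figure D3:**
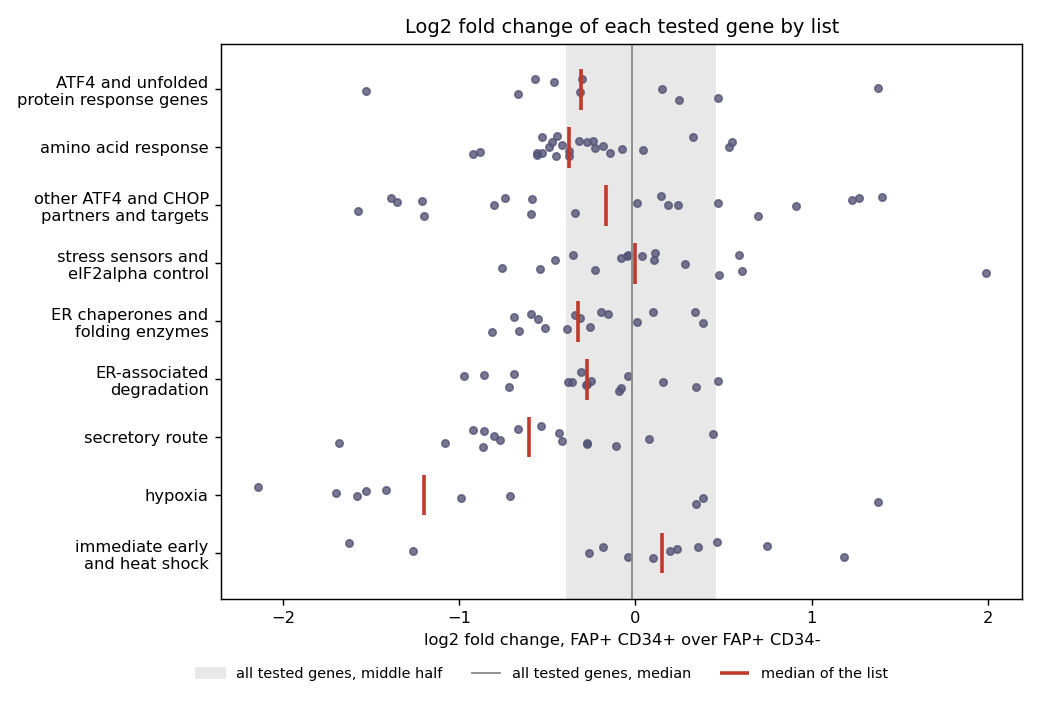
Log2 change, FAP+ CD34+ over FAP+ CD34-, of each tested gene (points) by list, with list medians in red and the median and interquartile range of all tested genes in grey. The medians of the secretory route (-0.60) and hypoxia (-1.20) lists lay lowest. Those of the list of stress sensors and eIF2alpha control (0.00) and of the immediate early and heat shock list (0.15) lay near the median of all genes (-0.02).

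The list of stress sensors and eIF2alpha control, which also holds proteases and relatives of Creb3l1, was spread around 0. In it 8 of 16 genes were positive, with a median of 0.00. Without overlap 2 were higher (23.4% of all tested genes) and 5 lower (26.6%). By edgeR 0 were called and none passed an unadjusted p of 0.05, and DESeq2 called 0. Eif2ak2, the kinase PKR that answers to double-stranded RNA, had 51.9 and 47.5 CPM in CD34+ cells against 30.5 and 36.4 CPM in CD34- cells (log2 change 0.59, SE 0.25, adjusted p = 0.320, edgeR). Eif2s1, which encodes eIF2alpha, had 39.9 and 55.0 CPM in CD34+ cells against 67.9 and 71.4 CPM in CD34- cells, and Mbtps2, a protease that frees ATF6, 7.36 and 13.4 CPM in CD34+ cells against 18.5 and 17.2 CPM in CD34- cells. Ern1, at 9.88 and 4.40 CPM in CD34+ cells against 5.67 and 3.90 CPM in CD34- cells, and Eif2ak3, at 21.4 and 28.5 CPM in CD34+ cells against 32.0 and 32.6 CPM in CD34- cells, were named after their values were seen.

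Markers of other cells and of tissue handling were uneven between the groups. Endothelial markers (9 genes) summed to 106 and 83.4 CPM in CD34+ cells and to 44.9 and 47.8 CPM in CD34- cells, led by Vwf. Without overlap 7 of the 9 lay higher (23.4% of all tested genes) and 2 lower (26.6%). Mesothelial markers (6 genes) summed to 397 and 233 CPM in CD34+ cells against 249 and 158 CPM in CD34- cells, led by Wt1, myeloid markers (9 genes) to 267 and 169 CPM in CD34+ cells against 179 and 124 CPM in CD34- cells, led by Cd14, and pericyte markers (7 genes) to 380 and 290 CPM in CD34+ cells against 408 and 520 CPM in CD34- cells, led by Cspg4, which overlapped between the groups and made up most of the sum in CD34+ replicate 1 (243 and 51.9 CPM in CD34+ cells against 139 and 196 CPM in CD34- cells). Of the 7 pericyte genes 4 were negative and 3 positive (median -0.16). The 3 positive genes were Kcnj8 (log2 change 0.57), Notch3 (0.40) and Abcc9 (0.24), and the groups overlapped for each. These 3 genes and the 3 pericyte genes that were lower without overlap were chosen for naming after their values were seen. Rgs5 had 2.13 and 7.33 CPM in CD34+ cells against 45.5 and 89.7 CPM in CD34- cells, Mcam 27.9 and 16.5 CPM in CD34+ cells against 103 and 103 CPM in CD34- cells, and Higd1b 0.097 and 0.513 CPM in CD34+ cells against 4.69 and 4.17 CPM in CD34- cells. Epithelial markers (8 genes) summed to 754 and 485 CPM in CD34+ cells against 707 and 366 CPM in CD34- cells, led by Krt8. Tff1 added nothing to this sum, with a deposited count of 0 in every library, although the authors' fragment table has 177 and 192 estimated fragments of it in CD34+ cells and 124 and 106 in CD34- cells. The 12 lymphoid and plasma genes other than Sdc1 summed to 41.6 and 30.2 CPM in CD34+ cells and to 15.4 and 30.6 CPM in CD34- cells. Of the sum in CD34+ replicate 1, 19.0 CPM came from Cd3e, named after its values were seen. Cd3e had 0.293 CPM in CD34+ replicate 2 and a count of 0 in both CD34- libraries, and it did not pass the filter on low counts. By DESeq2, 3 of the 9 endothelial and 1 of the 6 mesothelial genes (Lrrn4) were called higher. Called lower were 3 of the 7 pericyte genes (Rgs5, Mcam and Higd1b), 1 of the 9 myeloid genes and 1 of the 4 tested lymphoid and plasma genes (Sdc1). In these lists edgeR called 0. Lrrn4, with 26 and 26 counts in CD34+ cells against 2 and 4 in CD34- cells, passed the filter on low counts only through its CD34+ libraries. Higd1b passed it only through its CD34- libraries, so neither call carries weight of its own. Immediate early and heat shock genes, which tissue handling is known to induce, were positive for 7 of 12 (median 0.15, and -0.49 without CD34+ replicate 2), with 0 called by edgeR and 1 lower by DESeq2. Hspa1b, whose reads cannot be told from its near-identical copy Hspa1a, had 183 and 410 CPM in CD34+ cells, against 1246 and 622 CPM in CD34- cells and Hspa1a 301 and 533 CPM in CD34+ cells against 1339 and 708 CPM in CD34- cells. The immediate early gene Fosb had 2722 and 2575 CPM in CD34+ cells against 736 and 1588 CPM in CD34- cells, and Zfp36, which encodes an mRNA decay factor, 1071 and 1243 CPM in CD34+ cells against 531 and 847 CPM in CD34- cells. The part of these cells and genes in the values of the 10 members was not tested.

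**Figure D4:**
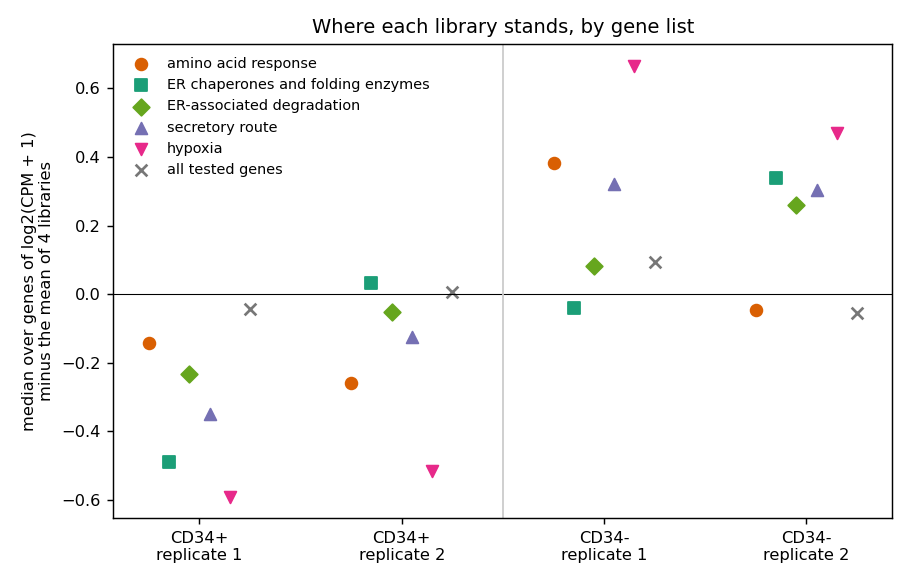
Median over the genes of each list of log2(CPM + 1) minus its mean over the 4 libraries, with the CD34+ libraries left and the CD34- libraries right. Amino acid response genes stood highest in CD34- replicate 1 (0.38), ER chaperones lowest in CD34+ replicate 1 (-0.49) and highest in CD34- replicate 2 (0.34), and hypoxia genes apart by group.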

How the data were processed

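RNA was sequenced in 4 libraries of sorted FAP+ cells, grouped by the titles. Per the labels' protocols, RNA was amplified with MessageAmp, so counts are of copies. The tools named in the submitters' processing notes are Bowtie2, TopHat2, HTSeq and edgeR, with the build mm9; the sources used here give no versions, annotation or strand setting. The authors deposited whole-number counts per gene, RPKM, bias-adjusted FPKM (22558 genes) and the estimated counts of fragments behind them, which were rounded here. Each table also holds 14 columns that match no sample here and were not used.

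Counts were tested with edgeR 4.0.16 (R 4.3.3) by the quasi-likelihood F test, with TMM scaling, filterByExpr and the group as the only term. P was adjusted by Benjamini-Hochberg over 13875 genes at 0.05; tests are two-sided, and the SE is the log2 fold change over the square root of F. With 2 libraries per group an exact permutation test cannot go below p = 0.333, and none was run. CPM are counts over the column total. TMM factors were 0.981 and 1.01 in CD34+ and 1.05 and 0.961 in CD34- libraries. A count of 0 allows up to 3 counts, which is 0.205 to 0.291 CPM, covering counting error only; for Tff1 and Amy2a5 a deposited count of 0 went with estimated fragments above 0, so a 0 there is a 0 of the count table only. The fits were tested on simulated data. No 2 libraries held identical counts.

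Named genes are the members, Cd34 and Fap, up to 4 genes of the smallest p and at least 5 CPM per list, the most abundant marker per cell type, the 3 genes most like Atf4, and those said to be named after their values were seen; 1 gene that this rule names is not reported here. Members and lists were chosen with earlier results of these data known. Of the listed symbols, Vimp and Mzb1 matched through older symbols in the RefSeq table. Alternatives were DESeq2 1.42.0, limma 3.58.1 (voom, log2 RPKM and log2 FPKM), edgeR's exact test, other scalings and filters, estimated fragments, a block for the replicate number, and fits without each library in turn, where a library left alone is taken to vary as the other group does.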

Additional observations from a re-analysis of the deposited data

How the results depend on the processing

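The count of members called was 0 in both directions under every alternative except DESeq2 and edgeR's exact test, which each called 1 higher (Creb3l1). Over all genes, where edgeR's quasi-likelihood test called 0 and 0, DESeq2 called 396 higher and 180 lower, the exact test 457 and 203, no filter 194 and 137, limma on log2(RPKM + 1) with a mean RPKM of at least 1 called 37 and 103, and library size scaling and a filter of 1 CPM in 2 libraries 2 and 0 each; voom, RLE scaling, log2(RPKM + 1), log2(RPKM + 0.1), log2(FPKM + 1) and estimated fragments gave 0 and 0. With each library left out in turn the counts stayed at 0 to 0. With the replicate number as a block 39 were called higher and 23 lower, 0 of them members. The deviations of libraries of the same number correlated at 0.24 over genes, but no label says that the number marks shared animals.

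Not every named gene was followed over the alternatives. Followed were the members, the genes of smallest p in the lists that are not of cell types, and the most abundant marker per cell type. Cd34, Fap, Hspa5, Ern1 and Eif2ak3 were followed too, and others, such as Fbn1, Tap1, Npr2 and Prdm1, were not. With each library left out in turn, log2 changes of 7 followed genes turned sign: they lay between -0.16 and 0.49 for Atf4 (turned without CD34- replicate 1), -0.043 and 0.46 for Sesn2, -0.018 and 1.19 for Cd14 and -0.12 and 1.07 for Ern1 (each without CD34+ replicate 1), -1.71 and 0.54 for Cspg4 (without CD34+ replicate 2, or CD34- replicate 2), -0.22 and 0.49 for Krt8 (without CD34- replicate 2) and -0.56 and 1.79 for Ctrb1 (without CD34+ replicate 1, or CD34- replicate 2). On log2 RPKM Atf4 (-0.23), Sesn2 (-0.15; -0.18 with a pseudocount of 0.1) and Krt8 (-0.26; -0.27) turned, and on log2 FPKM Atf4 (-0.34), Sesn2 (-0.35), Os9 (-0.12), Krt8 (-0.46), Ctrb1 (-0.17) and Ern1 (-0.064). Krt8 also turned on estimated fragments (-0.026). The cause was not tested, except that the RPKM and FPKM scales lower the median of the tested genes to -0.31 (pseudocount 1), beside -0.11 with no filter and -0.02 as tested. The direction of the other 8 members held under every alternative that gave a value. Chac1 had no value with a filter of 1 CPM in 2 libraries or of a mean RPKM of at least 1. Depth limits Chac1, at 4 to 20 counts a library, and Trib3, at 33 to 82.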
